A study of Mus musculus with 7 samples.

Results

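The 37 genes described here mark the endothelium of the mouse liver or encode signals that liver endothelium sends to its neighbours. They were chosen by name: 11 markers of sinusoidal endothelium, 7 genes of the VEGF and angiopoietin systems, 12 general endothelial genes, 5 secreted Wnt, R-spondin and BMP signals (angiocrine factors), and the Notch and ephrin ligands Dll4 and Efnb2. The choice went by gene name and not by measured value, although earlier results of these data were known when it was made. All 37 were among the 14851 genes of the table, and all 37 were among the 12545 genes whose mean over the livers reached the minimum of 10 for testing.

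Sinusoidal endothelial cells line the blood channels of the liver lobule, where they take up waste from the blood through scavenger receptors and pass solutes through open pores. They also instruct hepatocytes: Wnt ligands and R-spondin from endothelium near the central vein set the zone-specific programme of nearby hepatocytes, and BMP ligands from endothelium drive hepatocytes to make the iron hormone hepcidin. VEGF from hepatocytes and other cells acts in turn on endothelial receptors.

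RNA from whole livers of male mice of the C57BL/6J background (N10, about 70 days old) was sequenced 8 h after a single injection of the hepatotoxin carbon tetrachloride (CCl4) (1 mL/kg, from a 20% stock in oil). The study compared 4 livers of Albumin-Cre; p53FL/FL mice (FL) with 3 livers of Albumin-Cre; p53WT/WT mice (WT), each from a different mouse, to find early effects of p53 loss in hepatocytes on the response to the toxin. Both genotypes carried the Albumin-Cre transgene and both received CCl4, so no untreated liver entered the comparison. Albumin-Cre is active in cells that use the albumin promoter, which are hepatocytes and their precursors, and endothelium is not its target. Some mice of either genotype in the cohorts carried a red fluorescent Rosa26 reporter allele, and the labels do not say which. The source names of the samples begin differently in the 2 genotypes, the labels do not say what this marks, and it cannot be told apart from genotype in any comparison here. In bulk RNA, fewer cells of a type and less RNA per cell cannot be told apart.

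Values are the normalised read counts of the authors, which summed to between 15851380 and 16554427 per FL liver and between 14123213 and 15538815 per WT liver. Trp53 itself was at 131, 130, 217 and 110 in FL replicates 1 to 4 and at 876, 688 and 831 in WT replicates 1 to 3. The log2 fold change was −2.47 (SE 0.23, adjusted p = 0.0447 in limma), and the genotypes did not overlap, which follows the labels. WT replicate 2 and FL replicate 3 stood apart from the other 5 livers on the first principal component of all genes (66.7% of the variance), at 82.0 and 29.2 against −25.6 to −19.1. Results for the set and for each further gene list are therefore given with all 7 livers and again without these 2, and the values of each of the 37 genes without them are drawn in the plot of fold changes. All 37 genes were above 0 in every liver, and the lowest single value was 24.

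No difference between the genotypes passed the test for any of the 37 endothelial and angiocrine genes. Of these genes 19 were nominally higher and 18 nominally lower in FL livers, with a median log2 fold change of 0.01, and over all 12545 genes the median was also 0.01. Across the set the log2 fold changes ran from −0.20 for Bmp6 to 0.53 for Lyve1. At an adjusted p under 0.05 in limma 0 of 37 were called, against 2 of the 12545 genes (0.0159%). At an unadjusted p under 0.05 there were 0 of 37, against 401 genes (3.2%), and the smallest unadjusted p was 0.125, for Esam. In 0 of 37 did the livers of the 2 genotypes fail to overlap, against 597 genes (4.76%). All adjusted p-values of the set were 0.999.

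The precision behind these values varied from gene to gene. The median SE of the log2 fold change was 0.17 for the set and 0.19 for all genes tested. The 95% confidence interval lay inside a 1.5-fold difference in either direction for 26 of the 37 genes (70.3%), against 50.1% of all genes tested. It lay inside a 2-fold difference for 33 (89.2%), against 77.7% of all genes tested. The 4 genes whose intervals reached beyond 2-fold were Lyve1, Angpt2, Emcn and Dll4, so a 2-fold difference lay within the error for these 4.

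**Figure D1:**
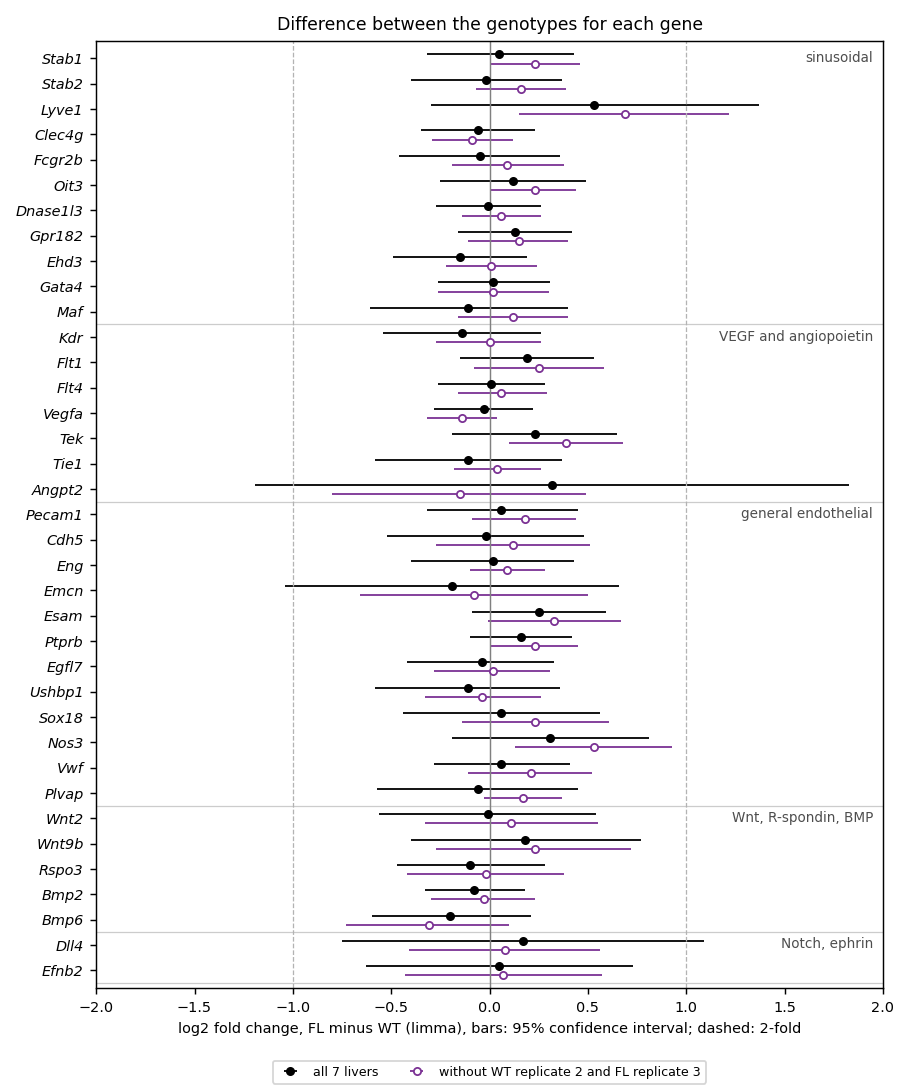
Log2 fold change (FL minus WT, horizontal axis) of each of the 37 genes, with 95% confidence intervals from limma, for all 7 livers (black) and without WT replicate 2 and FL replicate 3 (purple, open). Black intervals all cross 0, and those of Lyve1, Angpt2, Emcn and Dll4 pass a dashed 2-fold line.

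Livers of one genotype differed from each other across many of these genes at once. WT replicate 2 was the highest of the 3 WT livers in 28 of 37 genes (75.7%), against 45.5% of all genes tested. FL replicate 3 was the highest of the 4 FL livers in 22 of 37 (59.5%), against 35% of all genes tested. Both were highest in their genotype in 20 of 37 (54.1%, against 28.6%), and both were lowest in 3 (8.11%, against 28.8%), which were Angpt2, Wnt9b and Clec4g. WT replicate 3 held the other end of the range: it was the lowest of all 7 livers in 21 of 37 genes (56.8%), against 10.7% of all genes tested.

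The median shift of the 37 genes from the median liver, on the log2 scale, was 0.20 in WT replicate 2, 0.12 in FL replicate 3 and −0.16 in WT replicate 3, and it was from −0.05 to 0.00 in the other 4. By this measure the highest and the lowest liver were both WT, and all 4 FL livers lay between them. Over all genes tested it was 0.00 in each liver. Against the other livers of its genotype, WT replicate 2 was higher by a median of 0.38 and FL replicate 3 by a median of 0.18, where all genes gave 0.02 and 0.01. Kupffer cell and stellate cell markers were also high in WT replicate 2. The highest WT value was there for 4 of 4 tested lymphocyte, 2 of 4 neutrophil and 0 of 5 cholangiocyte markers. The 8 Kupffer cell markers summed to 12545 there against 4864 and 5513 in the other WT livers and 4872 to 7806 in FL livers. The 8 stellate cell markers summed to 7257 there against 3360 and 3663 in WT and 3541 to 4189 in FL livers. All 8 genes of each list were higher in that liver than in the other WT livers, and no marker of either list was at 0 in any liver. The 8 hepatocyte markers, most of whose sum is Alb, summed to 1555927 in WT replicate 2 against 1248847 and 1335522 in the other WT livers. In FL livers the sum was 1450880 to 1955286. Of the 8 markers, 6 were highest of WT in replicate 2. The other 2, Hnf4a (9547 against 12516 and 13827) and Apoa1 (114388 against 121251 and 116468), were lowest of WT there. The 8 proliferation genes summed to 1166 in WT replicate 2 against 111 and 136 in the other WT livers and 88 to 308 in FL livers. The part of any cell type in these shifts was not tested.

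**Figure D2:**
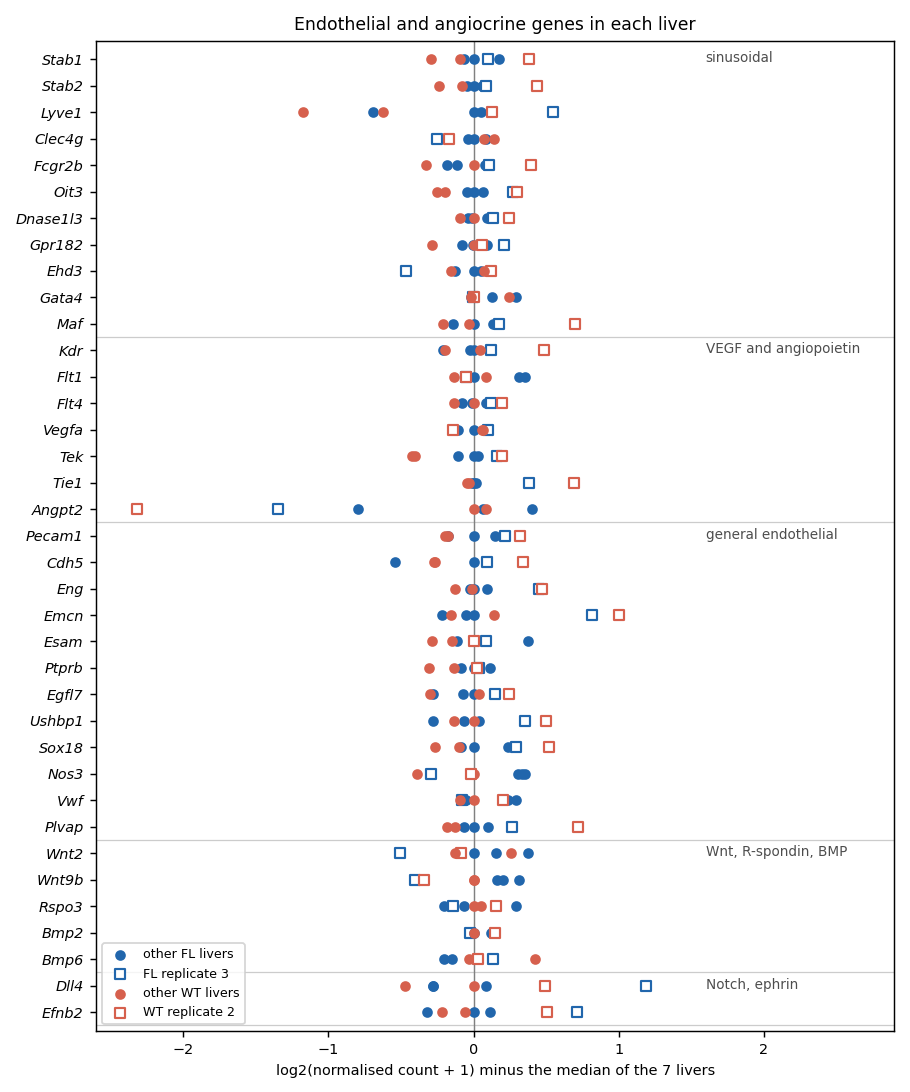
Each of the 37 genes in each liver, as log2(normalised count + 1) minus the median of the 7 livers (horizontal axis), with FL in blue, WT in red and open squares for FL replicate 3 and WT replicate 2. WT replicate 2 is the rightmost point in 20 genes, and Angpt2 is the gene with the widest range.

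Of the 11 sinusoidal markers, 9 were highest among WT livers in replicate 2. Lyve1, a receptor for hyaluronan that is also found on lymphatic vessels, was at 221, 371, 524 and 358 in FL replicates 1 to 4 and at 232, 391 and 158 in WT replicates 1 to 3. The highest liver was FL replicate 3, the lowest was WT replicate 3, and the genotypes overlapped. It had the largest fold change of the set, 0.53 on the log2 scale (SE 0.36, 95% interval −0.30 to 1.37, adjusted p = 0.999 in limma). The gene lies on chromosome 7 at chr7:110850607-110863239 (GRCm38, minus strand).

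Stab1 and Stab2, scavenger receptors that clear modified proteins and matrix fragments from blood, were high and low in the same WT livers. Stab1 was at 1547, 1751, 1657 and 1479 in FL and at 1450, 2014 and 1265 in WT livers. Stab2 was at 409, 425, 434 and 396 in FL and at 387, 555 and 347 in WT livers. For both, WT replicate 2 was the highest and WT replicate 3 the lowest of all 7 livers, and the 4 FL livers lay between. Their log2 fold changes were 0.05 (SE 0.16) and −0.02 (SE 0.17).

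Dnase1l3, a secreted nuclease that degrades DNA in blood, had the smallest difference among the sinusoidal markers, at 880, 820, 904 and 803 in FL and 825, 978 and 775 in WT livers. Its log2 fold change was −0.01 (SE 0.11, 95% interval −0.27 to 0.26). WT replicates 2 and 3 again held the top and the bottom of the range. Maf, a transcription factor of sinusoidal cells that macrophages also use, was at 320, 291, 329 and 264 in FL and 285, 472 and 251 in WT livers. Its excess in WT replicate 2 over the other WT livers, 0.82 on the log2 scale, was the widest of the sinusoidal markers after Lyve1 (1.03).

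Clec4g, Ehd3 and Gata4 did not follow the others. Clec4g, a C-type lectin of sinusoidal cells, was at 717, 674, 567 and 658 in FL and 742, 598 and 707 in WT livers. WT replicate 2 and FL replicate 3 were here the lowest of their genotypes. Ehd3, which acts in the recycling of endocytosed receptors, was at 878, 908, 637 and 805 in FL and 790, 954 and 925 in WT livers. It was highest in WT replicate 2 but lowest in FL replicate 3, so the direction differed between these livers. Gata4, a transcription factor needed for sinusoidal identity, varied little, from 477 to 591 over all livers, and FL exceeded WT by 0.02 on the log2 scale (SE 0.12). For Gata4 WT replicate 2, at 483, lay between the other WT livers at 572 and 477, and FL replicate 3 lay between other FL livers.

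The remaining sinusoidal markers overlapped between the genotypes as well. Fcgr2b, an inhibitory receptor for IgG, averaged 553 ± 53.8 over the 4 FL livers and 583 ± 147 over the 3 WT livers (mean ± SD, as for the averages that follow). Of its 36-base stretches 5.22% were shared with other genes, mostly Fcgr3, so a part of its reads could match either gene. How such reads were counted is not given in the sources used here. Oit3 averaged 519 ± 51.9 and 483 ± 107, and Gpr182, a receptor that scavenges chemokines, averaged 652 ± 57.8 and 597 ± 73.9. In the summed level of all 11 sinusoidal markers FL livers lay between 6805 and 7456, inside the WT range of 6279 to 8443.

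The receptors of the VEGF and angiopoietin systems split into those that were high in WT replicate 2 and Flt1, which was not. The promoters of 3 of these receptors and of Eng, an endothelial co-receptor with the same pattern, are printed to show which endothelial-type motifs they hold. Each is the stretch of 250 bases before the start site in RefSeq (GRCm38.p6), written 5′ to 3′ on the strand of the gene, with matches on either strand in capitals. The letters capitalised were GGAAGT for ETS factors, ACAAAG for SOX factors and AGATAA for GATA factors, and the 4 windows held no GATA match. Searched as well, and not capitalised, were TGCTGA as the half-site of MAF factors, ACGTG as the core of the hypoxia element and TGGGAA for RBPJ, the DNA-binding partner of Notch. In these 4 windows Kdr held 1 RBPJ match and Tek 1 MAF match, and no match overlapped another, although the ETS and RBPJ letters can share bases.
Kdr: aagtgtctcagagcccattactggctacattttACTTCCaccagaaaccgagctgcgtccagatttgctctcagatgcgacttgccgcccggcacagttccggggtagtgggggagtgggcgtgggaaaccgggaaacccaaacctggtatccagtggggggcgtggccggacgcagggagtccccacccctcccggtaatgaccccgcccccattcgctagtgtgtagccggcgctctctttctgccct
Flt1: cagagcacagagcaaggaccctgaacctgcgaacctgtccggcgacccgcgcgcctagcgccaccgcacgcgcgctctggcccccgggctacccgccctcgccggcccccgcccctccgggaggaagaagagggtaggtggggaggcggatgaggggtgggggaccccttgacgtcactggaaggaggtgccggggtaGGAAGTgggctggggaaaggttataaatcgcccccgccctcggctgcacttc
Tek: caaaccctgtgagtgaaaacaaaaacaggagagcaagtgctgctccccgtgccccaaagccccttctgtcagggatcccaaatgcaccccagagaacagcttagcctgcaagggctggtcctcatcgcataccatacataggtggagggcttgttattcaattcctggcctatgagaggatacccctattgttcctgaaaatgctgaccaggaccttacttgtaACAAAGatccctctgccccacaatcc
Eng: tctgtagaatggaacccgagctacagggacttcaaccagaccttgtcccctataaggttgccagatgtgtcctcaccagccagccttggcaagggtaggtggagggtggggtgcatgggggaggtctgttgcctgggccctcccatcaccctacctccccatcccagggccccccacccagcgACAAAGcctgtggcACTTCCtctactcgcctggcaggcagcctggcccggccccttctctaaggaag

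The window of Kdr is chr5:75978456-75978705 (minus strand) and that of Flt1 is chr5:147726012-147726261 (minus strand), and each held 1 ETS match. The window of Tek is chr4:94739039-94739288 (plus strand) with 1 SOX match, and that of Eng is chr2:32646345-32646594 (plus strand) with 1 match of each. Of the 37 genes, 20 had a promoter in the table. The ETS letters were in 6 of these 20 and in 23.4% of the promoters of 9917 tested genes. The SOX letters were in 3 of the 20 and in 12.0% of the tested genes, and the GATA letters in 1 of the 20 and in 6.1%. The MAF letters were in 4 of the 20 and in 12.3%, the hypoxia letters in 1 and in 21.7%, and the RBPJ letters in 6 and in 20.8%. Kdr and Flt1 thus shared the ETS letters while their values across livers differed, and a match describes letters only.

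Kdr, the main signalling receptor for VEGF (VEGFR2), was at 452, 460, 501 and 398 in FL and at 475, 645 and 401 in WT livers. Its highest liver was WT replicate 2 and its lowest FL replicate 4, and the log2 fold change was −0.14 (SE 0.17). Flt1, a high-affinity VEGF receptor (VEGFR1) that can act as a decoy, was at 200, 249, 193 and 256 in FL and at 212, 193 and 182 in WT livers. Here FL replicate 3 was the lowest FL liver and WT replicate 2 lay between the other WT livers. Flt4, the receptor for VEGF-C (VEGFR3), had the smallest difference of the group, at 518, 554, 569 and 494 in FL and 523, 600 and 476 in WT livers. For Flt4 FL exceeded WT by 0.01 on the log2 scale (SE 0.12).

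Vegfa, the ligand, which hepatocytes and other cells make, was among the steadiest genes of the set at 2544, 2318, 2726 and 2363 in FL and 2663, 2305 and 2647 in WT livers. The highest liver was 1.18 times the lowest. WT replicate 2 was the lowest liver, where the receptor Kdr was at its highest. The log2 fold change was −0.03 (SE 0.11, 95% interval −0.28 to 0.22).

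Tek (TIE2), the receptor for the angiopoietins, was at 180, 176, 197 and 163 in FL and at 133, 202 and 131 in WT livers. WT replicates 1 and 3 lay below every FL liver, and WT replicate 2 lay above every FL liver. The log2 fold change was 0.23 (SE 0.18, adjusted p = 0.999 in limma). Tie1, its partner receptor, was at 352, 359, 463 and 355 in FL and at 348, 573 and 344 in WT livers. FL replicate 3 and WT replicate 2 stood above the other 5, which lay between 344 and 359.

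Angpt2, a ligand that endothelium releases on activation and that can block TIE2 signalling, varied more than any other gene of the set. It was at 295, 233, 87 and 128 in FL and at 237, 44 and 223 in WT livers, a 6.7-fold range. WT replicate 2 was the lowest liver and FL replicate 3 the next lowest, and these were the livers in which Tek and Tie1 were highest. Against the other livers of their genotype the log2 differences of Angpt2 were −2.36 and −1.24. Its log2 fold change was 0.32 (SE 0.65, 95% interval −1.19 to 1.83) with all livers and −0.15 (95% interval −0.80 to 0.49) without the 2 livers. The gene lies at chr8:18690263-18741562 (minus strand).

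**Figure D3:**
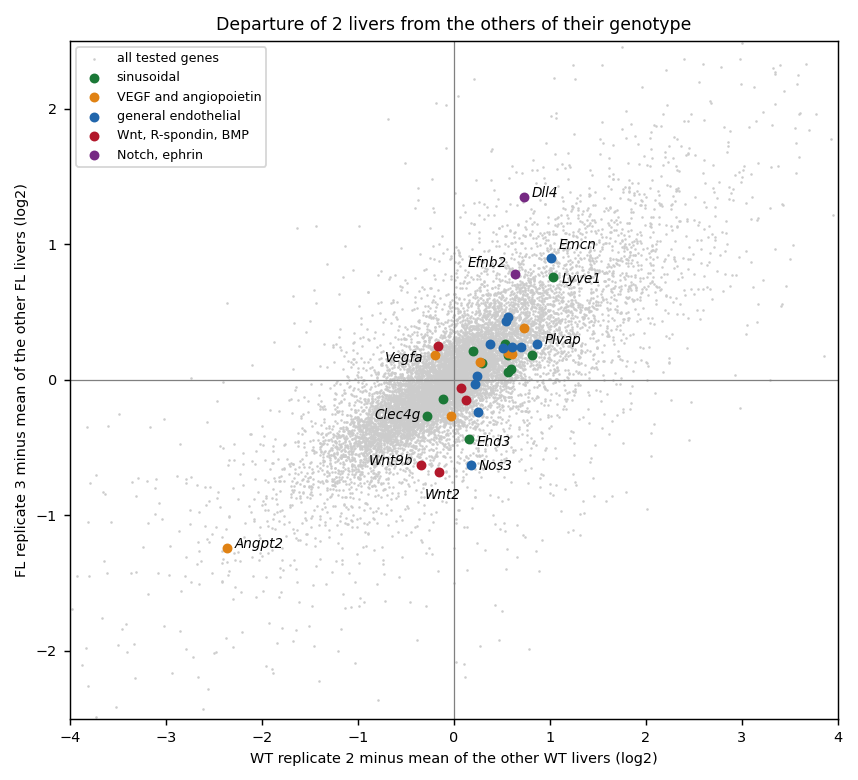
For each gene tested (grey) and the 37 genes (coloured by group), the log2 difference of WT replicate 2 from the mean of the other WT livers (horizontal) and of FL replicate 3 from the mean of the other FL livers (vertical). Angpt2 lies low on both axes at −2.36 and −1.24, and Dll4, Emcn, Lyve1 and Efnb2 lie high on both. Beyond the axes lie 82 genes.

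The general endothelial genes were also overlapping between the genotypes. Eng, a co-receptor for BMP9 and TGF-beta ligands, had the smallest difference of the group, at 1630, 1742, 2226 and 1603 in FL and 1619, 2265 and 1491 in WT livers. For Eng the log2 fold change was 0.02 (SE 0.18), and FL replicate 3 and WT replicate 2 were above all other livers. Plvap, which forms the diaphragms of endothelial pores, was at 952, 997, 1199 and 1066 in FL and 878, 1639 and 912 in WT livers. The WT mean of 1143 ± 430 (SD, n = 3) lay above the FL mean of 1054 ± 108 (SD, n = 4) through WT replicate 2, since the other WT livers lay below all FL livers.

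Nos3, the endothelial nitric oxide synthase, had the largest difference of this group, at 95, 93, 61 and 96 in FL and 75, 74 and 57 in WT livers. FL replicates 1, 2 and 4 lay above all WT livers and FL replicate 3 fell among them. The log2 fold change was 0.31 (SE 0.22, 95% interval −0.19 to 0.81, adjusted p = 0.999 in limma). Emcn, a sialomucin of veins and capillaries, was at 24, 28, 50 and 27 in FL and 31, 57 and 25 in WT livers. These were low counts, and FL replicate 3 and WT replicate 2 were again apart from the rest.

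Esam, an adhesion molecule of endothelial junctions, was at 298, 260, 299 and 366 in FL and 254, 282 and 231 in WT livers. Its log2 fold change of 0.25 (SE 0.15, 95% interval −0.09 to 0.59) had the smallest unadjusted p of the set. Every FL liver but replicate 2 lay above all WT livers. Cdh5 (VE-cadherin), the main adhesion protein of these junctions, was at 529, 496, 529 and 341 in FL and 413, 629 and 410 in WT livers, so that FL replicate 4 was lowest and WT replicate 2 highest.

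Other junctional genes gave similar values in the genotypes. Pecam1 averaged 429 ± 50.8 in FL and 414 ± 88.7 in WT (SD, n = 4 and 3), and Ptprb, a phosphatase that acts on TIE2 and VE-cadherin, averaged 993 ± 56.5 and 894 ± 102. Egfl7, a secreted endothelial matrix protein, averaged 476 ± 57.6 and 494 ± 91.8, with 6.17% of its 36-base stretches shared with another gene. Ushbp1 averaged 289 ± 54.1 and 314 ± 76.4, and the transcription factor Sox18 averaged 110 ± 13.9 and 108 ± 32.7. Vwf, the clotting factor carrier that is stronger in large vessels than in sinusoids, averaged 208 ± 28 and 199 ± 21.1. Among WT livers, replicate 2 held the highest value for 11 of the 12 general endothelial genes, and Nos3 was the exception.

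The angiocrine factors did not share the high values of WT replicate 2. Of the 5 genes, 2 peaked there among WT livers, and the median difference from the other WT livers was −0.15 on the log2 scale against 0.53 for both the sinusoidal and the general endothelial genes. Wnt2, made by endothelium around the central vein, was at 70, 78, 49 and 91 in FL and 84, 66 and 64 in WT livers. The lowest liver was FL replicate 3, and the log2 fold change was −0.01 (SE 0.24, 95% interval −0.56 to 0.54). Wnt9b, the second central-vein Wnt ligand, was at 37, 40, 24 and 36 in FL and 32, 25 and 32 in WT livers. Both WT replicate 2 and FL replicate 3 were lowest of their genotype for Wnt9b (log2 differences −0.34 and −0.63). Its log2 fold change was 0.18 (SE 0.25), and values this low carry a counting error of their own.

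Rspo3, which strengthens Wnt signalling in the same zone, was at 102, 93, 97 and 131 in FL and 111, 119 and 107 in WT livers. FL replicate 4 was its highest liver, and the log2 fold change was −0.10 (SE 0.16). Bmp2, a BMP ligand that induces hepcidin, was the steadiest gene of the set at 256, 234, 231 and 235 in FL and 260, 261 and 235 in WT livers. Its log2 fold change was −0.08 (SE 0.11, 95% interval −0.33 to 0.18). Bmp6, a ligand that responds to iron and also induces hepcidin, was at 78, 90, 99 and 81 in FL and 88, 92 and 121 in WT livers. WT replicate 3 was highest, and the log2 fold change of −0.20 (SE 0.17, 95% interval −0.60 to 0.21) was the lowest of the 37 genes.

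**Figure D4:**
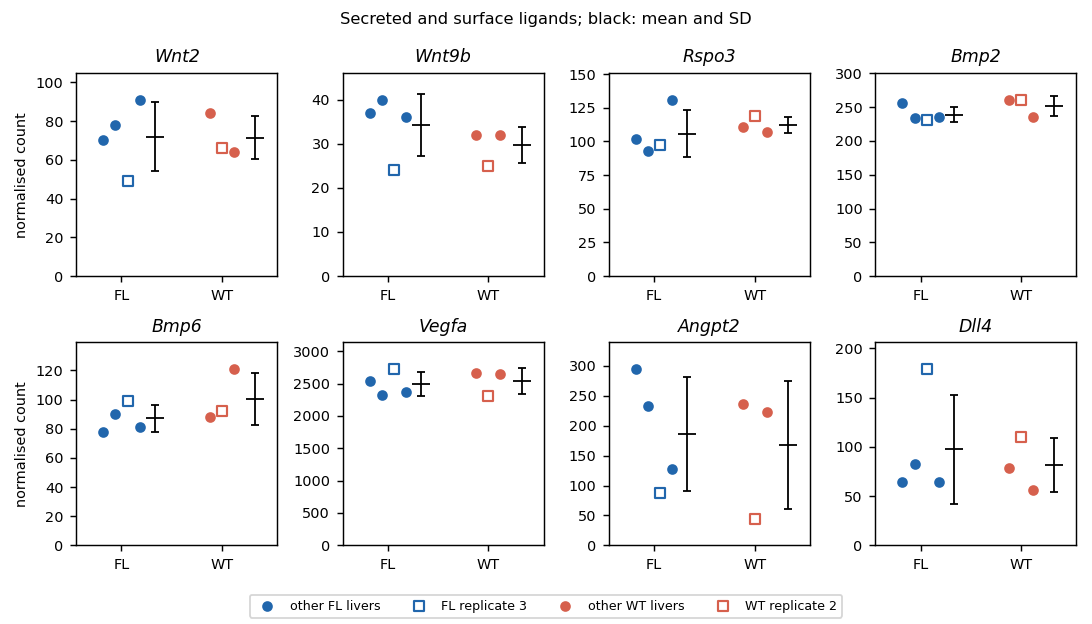
Normalised counts (vertical axes, from 0) of 8 ligands in each liver of FL (blue) and WT (red), with the mean and SD in black and open squares for FL replicate 3 and WT replicate 2. Bmp2 and Vegfa are nearly level, Angpt2 is low and Dll4 high in both open squares.

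Dll4, a Notch ligand of arterial and sprouting endothelium, was at 64, 83, 179 and 64 in FL and 78, 110 and 56 in WT livers. FL replicate 3 was 1.35 above the other FL livers on the log2 scale and WT replicate 2 was 0.73 above the other WT livers. The log2 fold change was 0.17 (SE 0.40, 95% interval −0.75 to 1.09). Efnb2, an ephrin ligand of arterial endothelium, was at 49, 39, 81 and 53 in FL and 47, 70 and 42 in WT livers. The same livers were highest, and the log2 fold change was 0.05 (SE 0.29).

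Per length, the 37 genes spanned a wide range of levels, from 586 normalised counts per kb of annotated exon for Vegfa to 6.39 for Emcn. Plvap at 550, Eng at 444 and Clec4g at 271 followed Vegfa, as means over the 7 livers. Among the VEGF receptors, Flt4 at 64.8 and Kdr at 52.7 lay above Flt1 at 15.7. Among the angiocrine factors, Bmp2 at 68.8 was highest, Rspo3 at 35.1, Wnt2 at 31.8 and Bmp6 at 23.8 followed, and Wnt9b at 7.15 was lowest. The point ranges of Rspo3, Wnt2 and Bmp6 overlapped across livers, and that of Wnt9b lay below all of them.

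**Figure D5:**
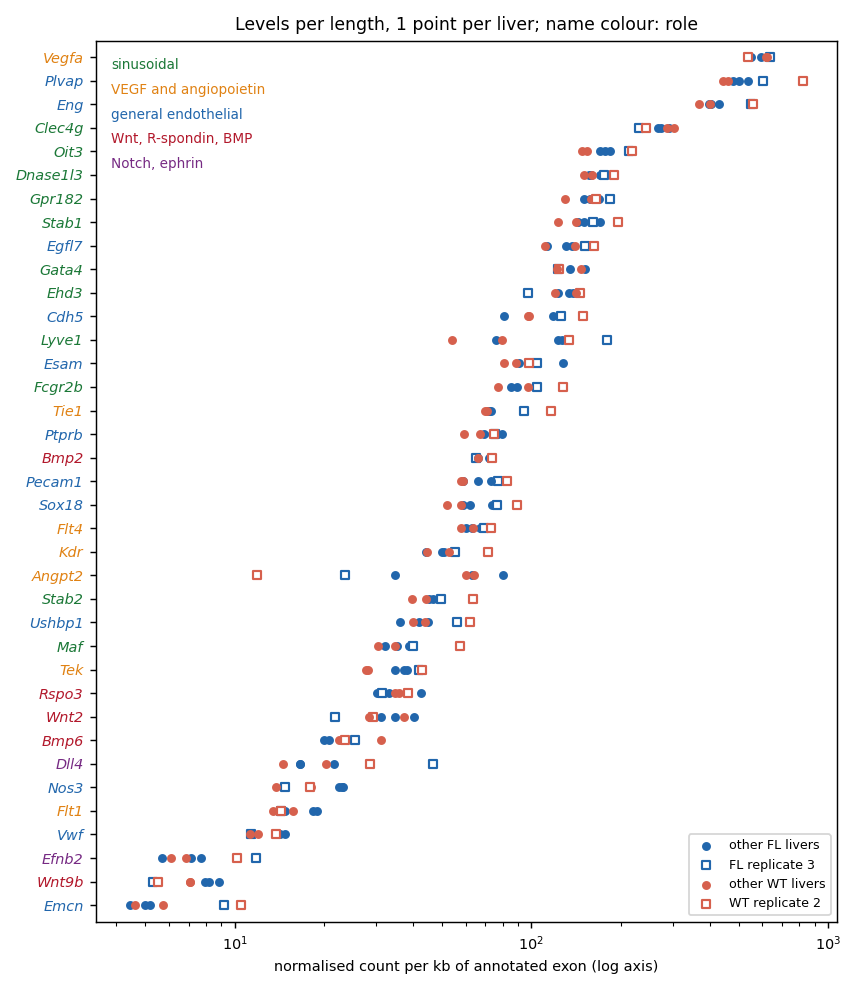
Level of each gene in each liver as normalised count per kb of annotated exon (log axis), in order of the mean and with names coloured by group. Vegfa, Plvap and Eng are at the top, and Efnb2, Wnt9b and Emcn at the bottom.

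Without WT replicate 2 and FL replicate 3, more of the 37 genes were nominally higher in FL livers, 28 against 9 lower, and the median log2 fold change was 0.09 against −0.01 over all genes. At an adjusted p under 0.05 in limma 0 of 37 were called, against 6 of 12325 genes (0.0487%), and the smallest adjusted p of the set was 0.379. At an unadjusted p under 0.05 there were 5 of 37, against 1200 genes (9.74%). These were Tek (log2 fold change 0.39), Nos3 (0.53), Lyve1 (0.69), Oit3 (0.23) and Ptprb (0.23). The 3 FL livers lay above both WT livers in 11 of 37 genes, against 12.8% of all genes tested, and below both in 1 gene, Vegfa, against 14.6%. The 11 genes were Stab1, Stab2, Oit3, Tek, Tie1, Esam, Ptprb, Sox18, Nos3, Plvap and Wnt9b.

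The 2 remaining WT livers were unlike each other in these counts. WT replicate 3 was the lowest of the 5 livers in 22 of 37 genes (59.5%, against 17.3% of all genes tested), and it lay below all 3 FL livers in 24 of 37 (64.9%, against 23.5%). WT replicate 1 was below all 3 FL livers in 12 of 37 (32.4%, against 23.2%). With WT replicate 3 left out and the other 6 livers kept, the median log2 fold change of the 37 genes was −0.08, and with WT replicate 2 left out it was 0.15, so the direction of the set turned on which WT liver was present.

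The genes on which these endothelial signals act gave no call either. Of 11 tested Wnt targets of pericentral hepatocytes 6 were nominally higher and 5 lower, with a median log2 fold change of 0.04. In limma 0 passed the adjusted threshold and 1 had an unadjusted p under 0.05, against 3.2% of all genes. That gene was Oat, an enzyme of ornithine breakdown, at 1836, 1518, 1068 and 1441 in FL and 2383, 1958 and 4185 in WT livers (log2 fold change −0.90, SE 0.28, adjusted p = 0.999). The FL livers were all below the WT livers, and 4.76% of all genes were without overlap in either direction. Nkd1, a feedback inhibitor of Wnt signalling, came next with a log2 fold change of −0.35 (SE 0.16). The summed level of the 12 Wnt targets in the table, most of which is Cyp2e1, was 13373 in WT replicate 2 and 22057 in FL replicate 3. In the other livers it was 46255 to 70867. Of the 11 tested targets, 9 were lowest and 2 highest of WT in replicate 2, and 10 were lowest and 1 highest of FL in replicate 3. Without these 2 livers 0 of the 11 were called, 10 of the 11 were nominally lower in FL, and the median was −0.30 against −0.01 over all genes. Then 4 of the 11 had an unadjusted p under 0.05, against 9.74% of all genes, and for 6 all 3 FL livers lay below both WT livers, against 14.6%. Those 4 were Oat (−0.99), Tcf7 (−0.38), Cyp1a2 (−0.38) and the glutamate transporter gene Slc1a2 (−0.32, and 1.01 with all livers). Among 11 tested Wnt receptors and co-receptors 0 passed either threshold, and Lrp6 (0.20) and Fzd4 (−0.20) came closest. Without the 2 livers 0 passed either threshold, and Fzd4 was at 0.02.

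Of 9 BMP targets 0 passed the adjusted threshold and 1 had an unadjusted p under 0.05, against 3.2% of all genes. That gene was Hamp, which encodes hepcidin, at 22812, 20346, 25213 and 28452 in FL and 17996, 18130 and 18431 in WT livers (log2 fold change 0.40, SE 0.14, adjusted p = 0.999 in limma). All FL livers lay above all WT livers, and 4.76% of all genes were without overlap in either direction. The ligands Bmp2 and Bmp6 overlapped between the genotypes, and their link to the Hamp values was not tested. Bambi, a decoy BMP receptor, came next at 0.23 (SE 0.19). Among 11 BMP receptors and transducers 0 passed either threshold. Tfr2, an iron sensor of hepatocytes, was at 8400, 8592, 9137 and 7773 in FL and 7745, 7033 and 7419 in WT livers without overlap (log2 fold change 0.19, SE 0.10), and Acvr1 had −0.15 (SE 0.23). Without the 2 livers 0 genes of either BMP list were called. Then 3 of the 9 targets had an unadjusted p under 0.05, against 9.74% of all genes, namely Hamp (0.38), Hamp2 (0.72) and Id2 (0.29), and so did 1 of the 11 receptors and transducers, Acvr1 (−0.27).

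Of the further VEGF and angiopoietin genes (7 tested of 11 listed), Notch genes (11 of 13), genes of endothelial activation and flow (11 of 13) and hypoxia genes (11 of 12), 0 passed either threshold in limma. The smallest unadjusted p-values of these 4 lists belonged to Nrp2 and Vegfc (log2 fold changes −0.43 and −0.19), Notch3 and Notch1 (−1.08 and −0.31), Klf4 (−0.74), and Egln3 and Pdk1 (−0.45 and 0.32). Klf4 was at 244 in WT replicate 2 against 72 and 50 in the other WT livers, and without the 2 livers its value was −0.11, that of Egln3 −0.14 and that of Pdk1 0.13. Without these livers 0 genes of the 4 lists were called. Unadjusted p-values under 0.05 were then held by 3 of 11 Notch genes, against 9.74% of all genes. These were Notch1 (−0.38), Notch2 (−0.34) and Notch3 (−1.07). Each was lower in all 3 FL livers than in both WT livers, as were 14.6% of all genes. Such p-values were also held by Nrp2 (−0.50), 1 of 6 genes tested of its list. The others were Vcam1 (0.46), an adhesion molecule of activated endothelium and 1 of 11 genes of its list, and Ero1l (−0.55), 1 of 10 hypoxia genes. Nrp1, a co-receptor for VEGF, was at 1032 in FL replicate 3 and 567 in WT replicate 2 against 3857 to 4296 in the other livers. Jag1, a Notch ligand, was at 131 and 103 in those livers against 411 to 648. Esm1, a secreted marker of VEGF-stimulated endothelium, was at 80 and 88 against 5 to 17. The 2 livers that stood apart therefore had lower Nrp1, Jag1 and Angpt2 and higher Esm1, Dll4 and Emcn than the other 5.

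Marker lists of other cells had 0 calls in limma with all livers. Against 3.2% of all genes, unadjusted p-values under 0.05 were held by 3 of 5 cholangiocyte markers and 3 of 8 hepatocyte markers and by 0 genes of the Kupffer, stellate, neutrophil, lymphocyte, large-vessel and proliferation lists. Krt19, a keratin of bile ducts, was at 21, 11, 6 and 17 in FL and 128, 106 and 26 in WT livers (log2 fold change −2.41, SE 0.62, adjusted p = 0.999). Sox9, a transcription factor of bile ducts that stressed hepatocytes can also use, had a log2 fold change of 1.14 (SE 0.30), and without the 2 livers it was called at 1.45 (adjusted p = 0.027 in limma). Apoa1 (0.65) and Cyp3a11 (−0.83) led the hepatocyte list. The next closest genes were Timd4 and Vsig4 (0.33 and −0.23) for Kupffer cells, Lrat and Reln (−0.92 and −0.27) for stellate cells, and Sox17 and Clu (0.18 and 0.05) for large-vessel endothelium. For lymphocytes they were Cd3e and Nkg7 (−1.24 and −0.51), for neutrophils Mmp9 and Csf3r (−0.50 and −0.42), and for proliferation Mki67 and Aurkb (−1.35 and −1.05). In the large-vessel list Clu was at 27277 to 33178 against 24 to 76 for Sox17, and which cells gave the Clu reads was not tested. Mki67 was at 26, 380 and 38 and Aurkb at 9, 50 and 6 in WT livers, so WT replicate 2 enlarged both values. Aurkb was at 4, 4 and 5 in FL replicates 1, 2 and 4, below the other WT livers as well. Without the 2 livers Mki67 was at −0.63, Reln at 0.05, Csf3r at −0.09 and Sox17 at 0.45, and the mean of Cd3e, Nkg7 and Aurkb fell under the minimum for testing. Of the 8 lists 1 gene was then called, Sox9, and unadjusted p-values under 0.05 were held by 4 of 5 cholangiocyte, 3 of 8 hepatocyte, 2 of 8 Kupffer and 2 of 8 stellate markers and by 0 of the others, against 9.74% of all genes.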

How the data were processed

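Poly(A) RNA of 7 livers was made into stranded TruSeq libraries and sequenced on a NextSeq 500 as read pairs of 36 cycles. According to the methods and the submitters' processing notes, the authors aligned reads with TopHat2 2.0.13 and Bowtie2 2.2.6.0, counted them per gene with HTSeq against Ensembl annotation and normalised with DESeq2. The processing notes also name featureCounts, and which counting tool gave the values is not clear from the sources used here. The strand setting of the counting is not given in the sources used here. What the authors deposited are normalised values after rounding, treated here as a score and not as raw counts, so no count model was run. From the steps between low values, 1 read was worth between 0.8115 and 1.3845, which sets the precision of low values.

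The table held 14988 lines for 14851 gene identifiers (120 repeated with identical values), of which 14839 matched a GENCODE symbol. FL and WT were compared on log2(normalised count + 1) for the 12545 genes with a mean of at least 10, with limma 3.58.1 (R 4.3.3, empirical Bayes with a trend), Benjamini-Hochberg adjustment over all genes tested and 95% confidence intervals. Fold changes are on that scale. A gene was called at an adjusted p under 0.05. Exact two-sided permutation tests over the 35 splits of the livers can give no p below 0.029. In simulated data of FL against WT (12431 genes) the fit called 10% of genes changed by 0.5, 46.9% of genes changed by 1 and 95.8% of genes changed by 3 on the log2 scale, and 9 unchanged genes. The simulation held 48 to 50 changed genes of each size. It drew each gene independently, without shifts that a liver shares across genes, so these rates need not hold for the real livers. Under Benjamini-Hochberg adjustment the rates also rise with the number of changed genes. The real comparison called 2 genes, so the simulated rates may be too high for it. Python 3.11.15 with pandas 2.3.3, NumPy 2.4.6, SciPy 1.17.1 and Matplotlib 3.10.9 did the rest.

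Every gene of the set is accounted for. Values per liver are given for genes called, without overlap or with 1 FL liver far from the rest, for those with the largest and smallest fold change in each role group, and for Wnt2, Wnt9b, Rspo3, Bmp2 and Bmp6. Other genes with values per liver were added after their values were seen. Of each further list, called genes and the 2 with the smallest p are named, except 1 gene that is not reported here, and Nrp1, Jag1, Esm1, Hnf4a and the pathway genes with an unadjusted p under 0.05 without the 2 livers were added after their values were seen. The genes and lists were chosen with earlier results of these data known. Gene coordinates are those of GENCODE vM21 (GRCm38), and promoter windows those of RefSeq (GRCm38.p6). The processing notes name the build GRCh38, a human one, while the gene identifiers are of mouse. Apln, Aplnr, Rhbg, Bmpr1b, Hjv and Ly6g were not analysed here.

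Alternatives were other pseudocounts, filters, scalings and limma settings, the replicate block, each liver left out in turn and both WT replicate 2 and FL replicate 3 left out.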

Additional observations from a re-analysis of the deposited data

Results flagged for a closer look

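In 5 of the 37 genes 1 FL liver lay far from the other 3, with its gap to the nearest liver, divided by the range of the 4 livers, past Dixon's 95% limit for 4 values. That is 13.5% of the set, against 7.2% of all genes tested, and chance gives about 1 in 20, or 1.9 of 37 genes. FL replicate 3 was the far liver in 4 of the 37 genes (10.8%), against 4.97% of all genes tested. FL replicate 3 was the high liver for Tie1 (0.937), at 463 against 352 to 359. It was also the high liver for Emcn (0.846), at 50 against 24 to 28, and for Dll4 (0.835), at 179 against 64 to 83. The same liver was the low one for Nos3 (0.914), at 61 against 93 to 96. For Bmp2 (0.840) FL replicate 1 was the high liver, at 256 against 231 to 235, a difference that is small beside those of the other genes. The 3 WT livers were not examined in this way.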

How the results depend on the processing

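Of the 37 genes, 0 were called by limma under each of the 18 alternatives, and 0 to 8 had an unadjusted p under 0.05. In the fit used above 0 of 37 had such a p, against 401 of 12545 genes. With array weights 8 of 37 had one, against 1512 of 12545 genes. The median log2 fold change of the set ran from −0.08 without WT replicate 3 to 0.15 without WT replicate 2, was 0.15 with array weights and 0.09 without WT replicate 2 and FL replicate 3, and lay between −0.04 and 0.04 under the others. Over all genes the call count was 2, and it was 0 with a pseudocount of 5 (404 genes at an unadjusted p under 0.05), with a mean of at least 50 (316) and without a trend (465), 1 with quantile normalisation, 5 with array weights, 6 without both livers, and from 0 to 5 with 1 liver left out (5 without WT replicate 3, 1 without FL replicate 3 and 0 without any 1 of the other 5).

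With the replicate block, which leaves out FL replicate 4, the count over all genes was 0 (113 at an unadjusted p under 0.05), and the median of the 37 genes was 0.04. Deviations of same-numbered livers from their genotype means correlated at 0.44, −0.48 and −0.66 for replicates 1, 2 and 3. Such deviations sum to 0 within a genotype, so the departure of WT replicate 2 and FL replicate 3 also shapes these values. They cannot decide whether same-numbered livers were paired, and each liver came from a different mouse.

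The log2 fold change turned sign by over 1 SE in 8 genes. With array weights these were Stab2 (0.19), Fcgr2b (0.15), Maf (0.16) and Kdr (0.06), and without both livers Stab2 (0.16), Maf (0.12), Plvap (0.17) and Ehd3 (0.01). With 1 liver left out the value ran from −0.16 to 0.18 for Stab2, from −0.22 to 0.14 for Fcgr2b, from −0.29 to 0.16 for Maf and from −0.29 to 0.05 for Kdr. It ran from −0.23 to 0.13 for Tie1, from −0.46 to 0.74 for Angpt2 and from −0.22 to 0.23 for Plvap. In each of these 7 the sign turned without WT replicate 2. None of these values was called, and the cause was not tested. Between 0 and 13 of the 37 genes changed sign by any amount under a setting. With a mean of at least 50, Emcn and Wnt9b were not tested.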
